A study of Arabidopsis thaliana with 12 samples.

Results

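THIC (AT2G29630, on chromosome 2 in the reference table of assembly TAIR10.1) encodes the enzyme of the pyrimidine branch of thiamine synthesis in the chloroplast of Arabidopsis thaliana. It was the 1 feature annotated with THIC and no other gene, out of 3439 features on the array and 692 that carried exactly 1 gene, and 0 features held THIC beside other genes. The gene was chosen with its difference between the groups in these data known. It was selected on the same array intensities that are described below, so its own levels and differences are given as a description, with no test.

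Thiamine, vitamin B1, is made in plants from a pyrimidine part and a thiazole part. THIC is an iron-sulfur, radical S-adenosylmethionine enzyme of the chloroplast stroma that rearranges 5-aminoimidazole ribonucleotide, an intermediate of purine synthesis, into the pyrimidine part. THI1 supplies the thiazole part, TH1 joins the parts, and thiamine pyrophosphokinases make the active coenzyme thiamine diphosphate, which transketolase, pyruvate dehydrogenase and other enzymes of central metabolism carry. The THIC transcript is known to follow a daily rhythm under the circadian clock, and a riboswitch at the end of its messenger RNA binds thiamine diphosphate and lowers its level when the coenzyme is plentiful.

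Wild-type plants of the ecotype Columbia 0 were sampled either light adapted or in recovery, that is, back in light after 1 h of darkness, with 6 arrays of total RNA in each group. The titles and descriptions put the return to light at 2 h, the source names at 1 h, and no array was given for the end of the dark hour, so what belongs to the dark hour and what to the light after it cannot be told apart. The labels name no organ, age or time of day and do not say whether replicates were separate plants, so a difference is a difference between these arrays.

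The deposited values were taken as linear intensities, from 0 to a ceiling of 100, with a scale that stays unknown. Array medians ran from 0.0710 to 0.103 in the light-adapted group and from 0.0358 to 0.0400 in recovery, while summed intensities ran from 2286 to 3265 and from 2288 to 3314. Exact zeros made up 17.9% to 22.2% of the features on light-adapted arrays and 23.3% to 28.6% on recovery arrays. Of 14 transcripts that mark green leaf tissue, 5 lay on features with 1 gene (LHB1B2, PSAN, PSBW, PSBY and PRK), and each of those was above 0 on 12 arrays. None of the 5 root, 2 pollen and 2 seed markers lay on such a feature, so those organs could not be checked.

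THIC signal was about 4 times as high in recovering plants as in light-adapted plants. Its deposited intensity on light-adapted arrays 1 to 6 was 0.213, 0.230, 0.242, 0.272, 0.217 and 0.186, a mean of 0.227 ± 0.0291 (SD, n = 6). On recovery arrays 1 to 6 it was 0.934, 0.947, 1.15, 1.16, 0.683 and 0.645, a mean of 0.920 ± 0.220 (SD, n = 6). The groups did not overlap: the lowest recovery array, number 6, lay well above the highest light-adapted array, number 4. THIC was above 0 on every one of the 12 arrays. In RNA from whole samples, a larger share of cells that hold the transcript and more transcript per cell cannot be told apart.

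**Figure D1:**
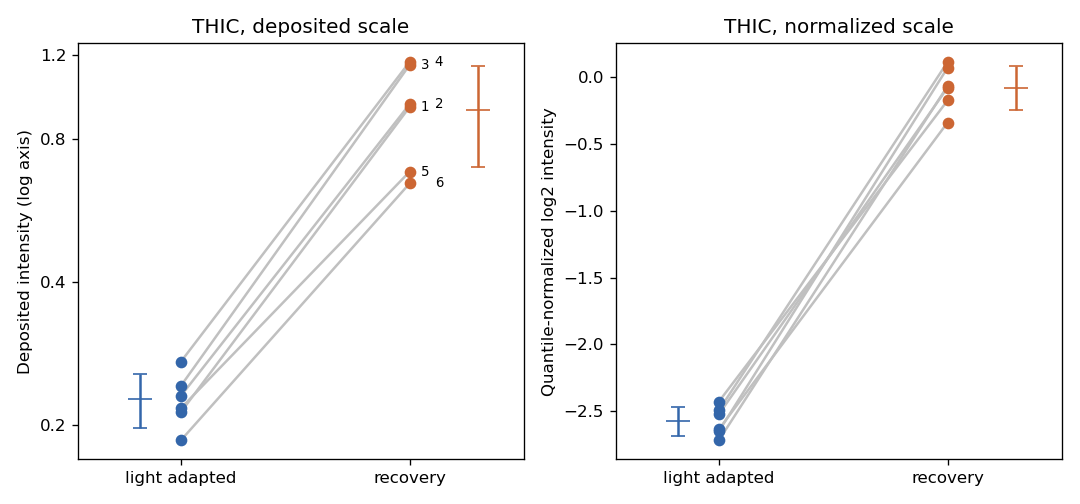
THIC on the 12 arrays, as deposited intensity on a log axis (left, in arbitrary units, replicate numbers beside the recovery points) and as quantile-normalized log2 intensity (right). Points are single arrays, grey lines join arrays with the same replicate number, and bars give the mean ± SD of 6 arrays. Recovery arrays lie between 0.645 and 1.16 and light-adapted arrays between 0.186 and 0.272.

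The higher THIC signal in recovery ran against the array median, though not against the summed intensity. The mean summed intensity was 2703 for light-adapted and 2722 for recovery arrays. The median feature of an array was dimmer in recovery, and this enters the ratio of THIC to it. THIC stood at 2.07 to 3.06 times its array's median in the light-adapted group and at 16.1 to 32.0 times in recovery. Its rank needs no scale, and it placed THIC above 69.4% to 73.9% of the features of the same array in light-adapted plants and above 90.7% to 93.0% in recovering plants. Read as a rank, the groups were also apart, by 21.0 ± 2.15 percentage points over the same-numbered pairs (SD, n = 6).

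Arrays with the same replicate number were then set side by side. On the deposited scale recovery exceeded light adapted 4.39-fold in pair 1, 4.11-fold in pair 2, 4.74-fold in pair 3, 4.28-fold in pair 4, 3.15-fold in pair 5 and 3.47-fold in pair 6. The direction was the same in 6 of 6 pairs, and the pairs numbered 5 and 6 had the smallest differences. In log2 units these differences had a mean of 1.99 ± 0.223 (SD, n = 6), with a range from 1.65 to 2.24.

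After quantile normalization, which gives every array the same distribution of log2 values, the pair differences were 2.72, 2.61, 2.65, 2.45, 2.26 and 2.30 for numbers 1 to 6. Their mean was 2.50 ± 0.194 (SD, n = 6), and pairs 5 and 6 were again the lowest. Centring each array on the median of the features above 0 on all arrays gave 2.29 to 2.96, and cyclic loess, which corrects differences that depend on brightness, gave 1.91 to 2.55. THIC was therefore higher in recovery in 6 of 6 pairs on each of these scales, and the scale set the size.

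**Figure D2:**
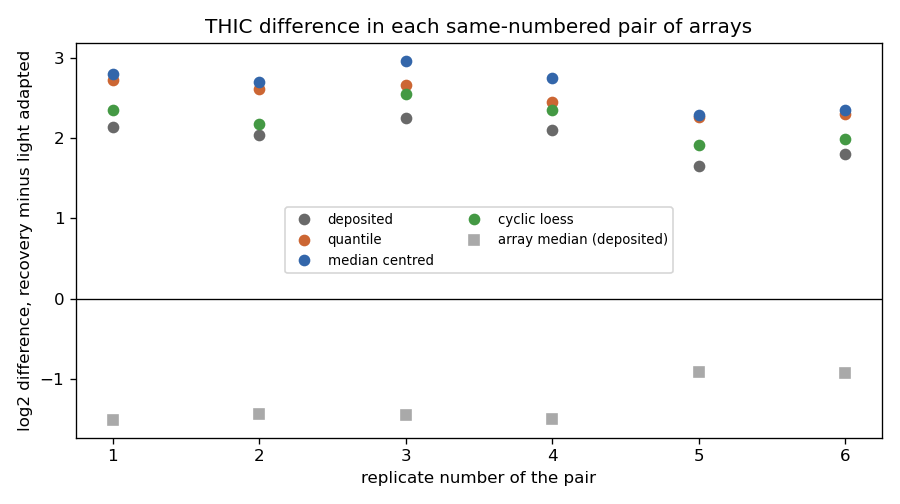
Log2 difference of THIC, recovery minus light adapted, in each same-numbered pair of arrays (x axis) on 4 scales, with the difference of the 2 arrays' median intensities as grey squares. The THIC points lie between 1.65 and 2.96, while the array medians lie between -1.50 and -0.90.

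Recovery arrays 5 and 6 carried the lowest THIC signal of their group. In recovery, arrays 3 and 4 had a mean THIC intensity of 1.15, arrays 1 and 2 of 0.941, and arrays 5 and 6 of 0.664. The mean summed intensity of those arrays followed the same order, at 3300, 2566 and 2298. Light-adapted arrays showed the order more faintly, with THIC at 0.257 on arrays 3 and 4, 0.222 on arrays 1 and 2 and 0.201 on arrays 5 and 6, beside summed intensities of 3249, 2558 and 2301. Quantile normalization changed the order in recovery to 0.094 on arrays 1 and 2, -0.071 on arrays 3 and 4 and -0.26 on arrays 5 and 6, in log2 units. It reversed the light-adapted order, to -2.53 on arrays 5 and 6, -2.57 on arrays 1 and 2 and -2.62 on arrays 3 and 4. The part of the arrays' overall brightness in these differences was not tested. Neighbouring numbers had similar summed intensities, in recovery 2539 and 2593, 3314 and 3287, and 2288 and 2309. Spearman correlations over all features between neighbouring numbers were 0.791 to 0.939 among light-adapted and 0.788 to 0.830 among recovery arrays. Between other arrays of the group they were 0.750 to 0.836 and 0.763 to 0.798, lower at both ends though the ranges overlapped. Whether neighbouring arrays shared plants or RNA is not given, so the 6 arrays of a group may not be 6 independent replicates.

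On the normalized scale THIC varied less within a group than most features did. Its SD in quantile-normalized log2 intensity was 0.11 over the 6 light-adapted arrays and 0.17 over those in recovery. The median SD of the 1429 features above 0 on all arrays was 0.55 and 0.39, and 1.68% and 11.8% of those features had a smaller SD than THIC. On the deposited scale its SD was 0.19 in the light-adapted plants and 0.36 in recovery, and 4.41% and 30.1% of features were tighter. The features compared were not matched to THIC in brightness, and THIC was chosen on these same intensities. Its small spread is therefore a description only.

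In a limma model over the 2364 features with at least 4 values above 0 in each group, THIC differed by 2.50 ± 0.158 (SE) on the quantile-normalized log2 scale, which corresponds to 5.65-fold. The normalized mean was -2.58 for light-adapted plants and -0.077 for recovering plants. Of the features tested, 79 had a larger positive difference, 3.34%, and 14 of these were among the 452 tested features with 1 gene. On the deposited scale the difference was 1.99 ± 0.220 (SE) and 72 features had a larger one. With median centring it was 2.64 ± 0.162 (SE), and 72 features had a larger one. With cyclic loess it was 2.22 ± 0.163 (SE), and 117 features, 4.95%, had a larger one, 21 of them with 1 gene. The median difference over all features was -0.038 after quantile normalization, -0.82 on the deposited scale and -0.067 with cyclic loess. THIC stood 2.54, 2.81 and 2.29 above that median.

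As background, 873 of the 2364 features, 36.9%, differed between the groups at an adjusted p under 0.05 in that model, and 438 of them, 18.5%, were higher in recovery, against 435 lower, 18.4%. The balance depended on the scale, with 226 higher and 870 lower as deposited, and 646 higher and 323 lower after centring on the median of the features above 0 on each array, an alternative added once the data had been examined. With neighbouring arrays averaged, 3 against 3, 405 features were called. Averaging equal couples leaves the THIC difference at 2.50 by arithmetic, and its SE was then 0.291. The place of THIC among these differences is read no further, because the gene was chosen on this contrast.

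**Figure D3:**
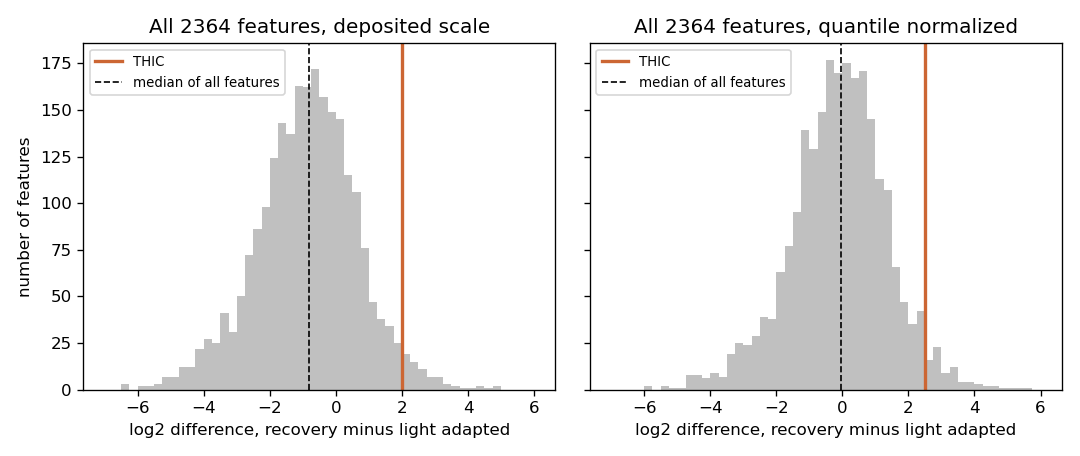
Number of features (y axis) by log2 difference, recovery minus light adapted (x axis), for all 2364 features tested, on the deposited scale (left) and after quantile normalization (right). The orange line marks THIC, at 1.99 and 2.50, and the dashed line the median of all features, at -0.82 and -0.038.

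The other genes of the pathway were looked for on features with 1 gene. The context lists held 97 genes: 10 of thiamine synthesis and transport, 20 thiamine diphosphate enzymes, 12 of plastid iron-sulfur cluster assembly, 15 of purine synthesis, 26 of other vitamin and cofactor synthesis and 14 of the circadian clock. Beside THIC, only 1 of them could be tested, AT1G31220 of the purine list. Another 6 features carried a list member together with other genes and were named for none. THI1, TH1, the thiamine pyrophosphokinases, the transketolases and the clock genes were on no single-gene feature. Whether they moved with THIC could therefore not be read gene by gene. Of the features with several genes, 1 held a thiamine diphosphate enzyme, and 0 held a gene of the thiamine synthesis or clock lists.

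AT1G31220 was dim. Its intensity on light-adapted arrays 1 to 6 was 0.0406, 0.0297, 0.131, 0.0802, 0.0454 and 0.0681, and on recovery arrays 1 to 6 it was 0.0572, 0.0857, 0.0807, 0.180, 0.138 and 0.0577. As deposited the groups overlapped, with recovery lower in the pairs numbered 3 and 6. After quantile normalization they did not overlap, and AT1G31220 rose by 1.70 ± 0.406 (SE, limma adjusted p = 0.00578), with 6 of 6 recovery arrays above the light-adapted mean. On the deposited scale it was at 0.64 (limma adjusted p = 0.211), and with neighbouring arrays averaged at 1.70 (limma adjusted p = 0.0605), so the call rested on the normalization and on counting 6 arrays per group. This 1 call of 1 gene tested stands beside 18.5% of all features called higher and says nothing of the purine list as a whole.

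Among 257 other single-gene features above 0 on all arrays, those most like THIC over the 12 arrays were ranked by Pearson's r of quantile-normalized log2 intensity. The 5 highest were SIS (AT5G02020, a salt-induced serine-rich protein gene) at r = 0.987, AT4G13550 at 0.976, the calmodulin-like gene CML41 (AT3G50770) at 0.967, OTP70 (AT4G25270, an organelle transcript processing gene) at 0.956 and AT2G46220 at 0.956. Spearman's rho was 0.902, 0.741, 0.748, 0.748 and 0.825 in that order. Without the 2 arrays farthest from the median of THIC, r was 0.986, 0.976, 0.962, 0.942 and 0.940. Leaving them out keeps the gap between the groups, so it cannot show whether the likeness rests on a few arrays. The 12 points fall into 2 groups and share their arrays, so these coefficients mostly say that each gene was higher in recovery.

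Within the groups of 6 arrays, r with THIC varied in size and sign among these genes. SIS was positive in both, with r = 0.710 over the light-adapted and 0.600 over the recovery arrays. AT2G46220 was at 0.932 in recovery and at -0.167 in light-adapted arrays. Its normalized levels in recovery lay in close couples of neighbouring numbers. The r of AT2G46220 within recovery therefore rests largely on levels shared by neighbouring arrays. AT4G13550 was at -0.733 in recovery and at 0.400 in light-adapted arrays. CML41 was at 0.541 in light-adapted and -0.155 in recovery arrays, and OTP70 at 0.133 and -0.294. The 6 arrays of a group may not be independent, so these r values are a description only.

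The deposited intensity of SIS went from 0.0873 ± 0.0238 to 0.441 ± 0.167 (SD, n = 6 each), and its normalized difference was 2.96 log2 units. That of CML41 went from 0.182 ± 0.0524 to 0.698 ± 0.139, a normalized difference of 2.54, the closest of the 5 to that of THIC. AT4G13550 differed by 3.31, OTP70 by 1.84 and AT2G46220 by 2.13 on the same scale. AT2G46220 was the brightest of them, ranging from 0.499 to 1.35 in light-adapted plants and from 2.36 to 5.26 in recovery. These genes were picked for their likeness to a gene chosen on this contrast, so their differences carry no test here.

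**Figure D4:**
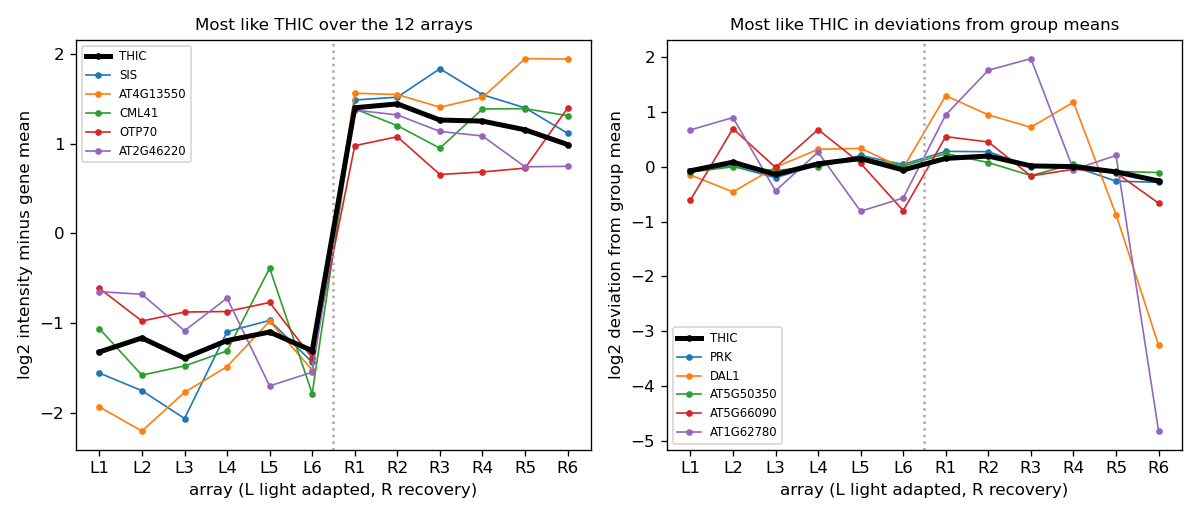
Quantile-normalized log2 intensity of THIC (black) and of the 5 single-gene features most like it over the 12 arrays, each minus its own mean (left), and log2 deviations from the group means of THIC and of the 5 features with the most similar deviations (right). Arrays are in label order on the x axis, L for light adapted and R for recovery. On the right, DAL1 and AT1G62780 swing far more widely than THIC and drop on recovery array 6, while PRK lies close to THIC.

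A second ranking removed the difference between the groups and compared only how arrays deviated from their group mean. PRK (AT1G32060), the phosphoribulokinase of the Calvin-Benson cycle, came out highest of the 257 at r = 0.925 over 12 arrays, with rho = 0.902. Its r was 0.867 within the light-adapted and 0.951 within the recovery arrays, and 0.886 without the 2 arrays farthest from the median THIC deviation. Normalized PRK in recovery lay in close couples of neighbouring numbers, at 0.955 and 0.949, 0.674 and 0.681, and 0.411 and 0.392. The r within recovery therefore rests largely on levels shared by neighbouring arrays, and the source of the likeness was not tested. On the deposited scale the r of the deviations was 0.877. Between the groups, PRK and THIC differed in opposite directions. PRK intensity on light-adapted arrays 1 to 6 was 3.69, 3.75, 4.75, 5.93, 4.94 and 4.54, and on recovery arrays 1 to 6 it was 1.83, 1.85, 2.17, 2.12, 1.02 and 1.06. The groups did not overlap, with PRK at -1.63 ± 0.174 (SE, limma adjusted p = 1.86e-05) on the normalized scale. Centred on the median of the features above 0 on each array, PRK lost its call, at -0.50 (limma adjusted p = 0.109). In recovery, both genes were lowest on arrays 5 and 6.

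**Figure D5:**
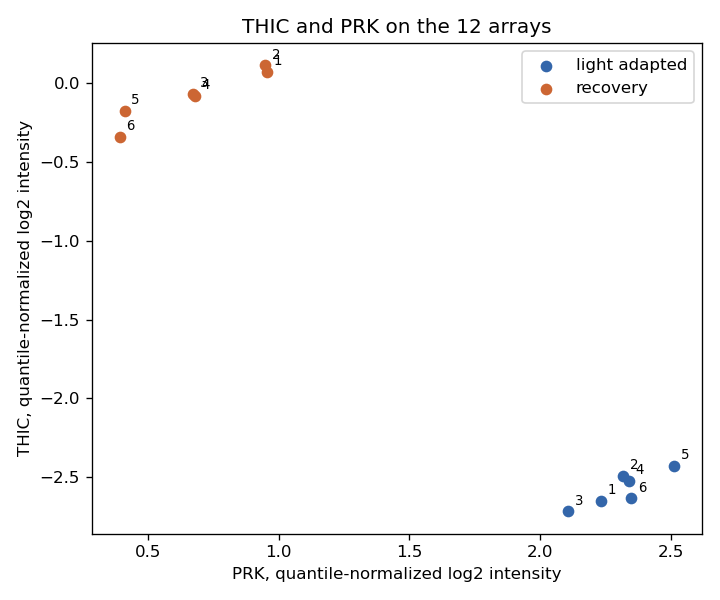
Quantile-normalized log2 intensity of THIC (y axis) against PRK (x axis) on the 12 arrays, with replicate numbers beside the points. The light-adapted arrays sit at the lower right and the recovery arrays at the upper left. Within each group THIC tends to be higher where PRK is higher, with exceptions such as light-adapted array 6.

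The other genes with similar deviations were DAL1 at r = 0.759, AT5G50350 at 0.721, AT5G66090 at 0.718 and AT1G62780 at 0.682. The gene identifier behind DAL1 did not match the reference table, so it keeps the name of the platform annotation. The likeness of DAL1 and AT1G62780 rested largely on a pair of arrays, with r at 0.503 and 0.185 without the 2 farthest. AT5G50350 stayed at 0.740, and its intensity was much the same in both groups, 10.9 ± 2.51 and 11.3 ± 2.55 (SD, n = 6 each). AT5G66090 was at 0.623 without those arrays. Only 1 of these 5 genes was also among the 5 highest on the deposited scale, so this ranking depends on the scaling.

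The leaf transcripts measured beside THIC differed among themselves. PSBW, a small subunit of photosystem II, rose by 1.48 ± 0.212 (SE, limma adjusted p = 0.000174) after quantile normalization, LHB1B2, a protein of the light-harvesting antenna, fell by 1.28 ± 0.157 (limma adjusted p = 5.62e-05), and PSAN of photosystem I at -0.29 and PSBY of photosystem II at 0.19 did not pass. With PRK, 1 of these 5 genes was called higher and 2 lower, beside 18.5% of all features called higher and 18.4% called lower. The signs were not all fixed: LHB1B2 lost its call as deposited, at -0.77 (limma adjusted p = 0.0551), and was at 0.22 when arrays were centred on the median of their own features above 0. PSAN was at 0.017 as deposited, and both PSAN and PSBY were called higher under either median centring, at 0.66 and 1.03 when centred on the features above 0 on all arrays. PSBW stayed higher in recovery on each scale and was the nearest of the 5 to THIC, at 1.91 as deposited against 1.99 for THIC. The gap was wider after quantile normalization, at 1.48 against 2.50, and with cyclic loess, at 1.70 against 2.22. No test of the difference between those genes was run.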

How the data were processed

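Total RNA was measured on 12 arrays with 1 channel per sample, 6 per group. The intensities were deposited by the authors as 1 table; for the scanner, background correction and normalization, the labels and the table are silent. They were read as linear because they are never negative, hold exact zeros and are strongly skewed. Depth does not apply to arrays, and their number limits the precision. Groups and replicate numbers came from the titles. Gene names came from the platform annotation, updated by gene identifier to the TAIR10.1 table (690 of 692 single-gene features matched); no array coordinates are given.

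Zeros were set to missing, log2 intensities were quantile normalized over all features, and features with at least 4 values per group were fitted in limma 3.58.1 under R 4.3.3 (lmFit, eBayes, two-sided, Benjamini-Hochberg over all features tested, adjusted p under 0.05). The fit was also run on simulated data with independent noise on each array, which does not cover variation that arrays share. Figures used matplotlib 3.10.9.

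THIC, the context lists, the scaling and the rule for named genes were chosen with earlier results of these data known. The rule named THIC, each testable list member, and the 5 single-gene features highest in each of 2 rankings of likeness; the leaf markers were fixed as a separate list. DAL1 and the other genes of the second ranking fall under it. Alternatives covered scaling, zeros, filters, the replicate number and left-out arrays.

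The comparison of same-numbered arrays was set in advance, and the main model held no term for the number. As a check on the values, their deviations from the group means correlated weakly, at r = 0.108 to 0.193 over 1429 features. Even so, 12 of 12 arrays correlated best with their own number in the other group. The labels give no ground for the pairing.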

Additional observations from a re-analysis of the deposited data

Results flagged for a closer look

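Of 24 groups of values looked at for a lone sample, on the quantile-normalized log2 scale of the named genes, 1 stood out. AT1G62780, one of the genes whose deviations resembled those of THIC, was at -10.4 on recovery array 6, while the other 5 recovery arrays lay between -5.63 and -3.61. The deposited intensity there was 0.000701, close to 0. Chance alone sets a sample apart in about 1 of 20 such groups. THIC itself had no such array in either group.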

How the results depend on the processing

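The THIC difference kept its direction under all 25 alternatives, between 1.99 and 2.99. In 21 of them it moved by less than the spread between replicates. Some of the 21 could not move it. THIC was above 0 on all arrays and the groups were equal in size. The filters, the replicate block on the normalized scale and the averaging of neighbours therefore left 2.50 unchanged by arithmetic. The gene was also chosen on this contrast, so the kept direction is a description only. The difference moved further on the deposited scale (1.99, with or without the replicate block) and with cyclic loess (2.22). It also moved further with centring on the median of each array's own features above 0 (2.99). The mean over pairs is the same quantity, at 1.99 as deposited and 2.22 with cyclic loess. Leaving out single arrays gave 2.43 to 2.56, and leaving out both arrays of neighbouring numbers in both groups gave 2.43 to 2.60. With a replicate block for the number, the difference was 2.50 ± 0.176 (SE) normalized and 1.99 ± 0.173 as deposited, and limma called 832 and 1131 features. The block changed neither the call of AT1G31220 on the normalized scale (limma adjusted p = 0.0166) nor any count by more than 1.5 times. The count of 873 called features ran from 781 to 858 without single arrays and was 405 with neighbouring arrays averaged, where fewer samples enter. The 1 call on the context lists, AT1G31220, held without any single array (1 to 1), with limma adjusted p from 0.00259 to 0.0135, and went to 0 on the deposited scale, with or without the block, and with neighbouring arrays averaged; the cause was not tested. Over its 25 alternatives the limma adjusted p of AT1G31220 ran from 0.00259 to 0.211. Of the 5 genes most like THIC over 12 arrays, 4 were shared on each other scale. Of the 5 most like it in deviations, 1 was shared as deposited, 3 after median centring and 1 with cyclic loess. The averaged and left-out neighbouring arrays, the second median centring, ranks within arrays and the likeness under cyclic loess were chosen after the data were seen. Dim features such as AT1G31220 lie near 0, where the unknown background correction limits what a difference means.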
